A study of Homo sapiens with 4 samples.

Results

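Expression of 44 genes of the proteasome was compared between carfilzomib-resistant and wild-type ARP-1 cells, which are a line of human multiple myeloma (a cancer of plasma cells). The genes were taken from a list of 50 symbols that covers the subunits of the 20S core and the 19S particle, the activators and an inhibitor, and the assembly chaperones. They were found by matching the Ensembl ID of each of 15201 genes in the deposited table to its symbol, and PSMB3, PSMB8, PSMB9, PSMC4, PSME1 and PSME2 are not analysed here. The resistant group (CfzR, 2 libraries) and the wild-type group (WT, 2 libraries) share the parental line. The sources used here do not give how resistance was obtained, the drug level at harvest or whether the resistant cells are a single clone. Whether replicates are separate cultures is not in the labels, so the error below is the spread between libraries, which may be technical. The comparison asks whether transcripts of the drug's target complex differ between resistant and parental cells.

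The proteasome degrades proteins that carry ubiquitin chains. Its 20S core is a stack of rings of alpha and beta subunits, and only the beta subunits PSMB5, PSMB6 and PSMB7 cut peptide bonds. In the immunoproteasome they are replaced by PSMB8, PSMB9 and PSMB10. The 19S particle caps the core. Its base holds the ATPases PSMC1 to PSMC6, which unfold substrates and push them into the core, and its lid removes the ubiquitin chain. Carfilzomib is an epoxyketone that binds the active-site threonine of PSMB5 irreversibly. Myeloma cells secrete large amounts of immunoglobulin and depend heavily on this route of protein disposal.

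Promoters are shown first for a few of the genes, as RefSeq gives them for GRCh38.p14. Each window runs from 250 bases before to 50 bases after the annotated start. PSMB5 is shown as the drug's target, and PSMC3 and PSMD6 as the subunit genes with the largest positive and negative log2 fold changes, with the CCAAT box in capitals (CCAAT on either strand, so ATTGG is its reverse complement). UCHL5 and ADRM1, which encode a deubiquitinase and the receptor that holds it, are shown with the core of the antioxidant response element in capitals (TGACNNNGC on either strand). That element is bound by NFE2L1, which drives transcription of subunit genes when the proteasome is inhibited. The windows are chr14:23035171-23035470 on the minus strand for PSMB5, chr11:47426390-47426689 on the minus strand for PSMC3, chr3:64023445-64023744 on the minus strand for PSMD6, chr1:193059311-193059610 on the minus strand for UCHL5 and chr20:62302646-62302945 on the plus strand for ADRM1.
PSMB5: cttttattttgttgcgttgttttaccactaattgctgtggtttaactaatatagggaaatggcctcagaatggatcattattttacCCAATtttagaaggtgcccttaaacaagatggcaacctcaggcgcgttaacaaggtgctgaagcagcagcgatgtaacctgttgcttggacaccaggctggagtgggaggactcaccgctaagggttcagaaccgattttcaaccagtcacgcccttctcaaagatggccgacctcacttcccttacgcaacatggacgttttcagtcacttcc
PSMC3: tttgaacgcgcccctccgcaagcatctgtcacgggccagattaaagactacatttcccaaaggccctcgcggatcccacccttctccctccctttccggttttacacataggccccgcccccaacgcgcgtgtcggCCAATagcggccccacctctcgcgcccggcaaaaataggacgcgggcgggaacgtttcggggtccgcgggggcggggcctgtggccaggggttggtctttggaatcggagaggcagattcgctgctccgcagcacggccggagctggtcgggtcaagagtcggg
PSMD6: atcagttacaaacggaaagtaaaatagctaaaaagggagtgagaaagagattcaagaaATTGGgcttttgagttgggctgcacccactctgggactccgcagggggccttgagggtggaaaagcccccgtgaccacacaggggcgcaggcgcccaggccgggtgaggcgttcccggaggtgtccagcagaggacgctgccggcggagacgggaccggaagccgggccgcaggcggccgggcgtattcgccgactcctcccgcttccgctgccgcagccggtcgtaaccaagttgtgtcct
UCHL5: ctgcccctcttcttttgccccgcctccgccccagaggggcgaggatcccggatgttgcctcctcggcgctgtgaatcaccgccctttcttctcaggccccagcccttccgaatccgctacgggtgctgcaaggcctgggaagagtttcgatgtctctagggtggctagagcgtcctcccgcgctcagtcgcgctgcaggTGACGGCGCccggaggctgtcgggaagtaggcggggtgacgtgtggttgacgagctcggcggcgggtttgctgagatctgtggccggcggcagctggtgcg
ADRM1: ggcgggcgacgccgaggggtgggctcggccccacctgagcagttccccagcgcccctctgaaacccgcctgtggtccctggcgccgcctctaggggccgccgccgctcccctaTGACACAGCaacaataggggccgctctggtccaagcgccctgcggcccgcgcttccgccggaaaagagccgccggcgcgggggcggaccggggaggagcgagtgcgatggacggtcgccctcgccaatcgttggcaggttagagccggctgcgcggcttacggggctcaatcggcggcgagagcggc
The first base of the match lies at position -164 from the start in PSMB5, -114 in PSMC3, -192 in PSMD6, -51 in UCHL5 and -137 in ADRM1. The searched motifs can share an end base only. The windows of PSMB5, PSMC3 and PSMD6 held no element core. The ADRM1 window also held a CCAAT box, which is not in capitals.

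Of 27305 promoters in the RefSeq table, 13.6% held the antioxidant response element core and 35.7% a CCAAT box. Among the 9655 promoters of genes in the deposited table, the shares were 15.6% and 37.1%. Promoters were matched for 44 of the 50 listed members, measured or not, and 15 of them (34.1%) held the element core and 19 (43.2%) a CCAAT box. Among measured members, the log2 fold change had a median of -0.02 for the 10 with the element core (5 positive) and of -0.01 for the 28 without it (14 positive). A match says only that these letters are in the window.

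The libraries had a median of 7.75 and 7.73 FPKM over all genes in CfzR replicates 1 and 2, against 7.50 and 7.74 in WT replicates 1 and 2. FPKM are fragment levels scaled to transcript length and library size, and they hold no counts, so sequencing depth is unknown. The values of a library summed to 673265 and 877849 FPKM in CfzR and to 918617 and 955284 in WT. All 9 plasma cell markers listed were measured in each library, with summed levels of 6700 and 6134 FPKM in CfzR and 5915 and 5990 in WT. Without JCHAIN, the most abundant of them, the sums were 2098 and 2295 FPKM in CfzR and 2302 and 2497 in WT. TNFRSF17 and XBP1 were lower in CfzR without overlap, at 0.677 and 0.819 times the WT mean (limma adjusted p = 0.495 and 0.720). SDC1, PRDM1 and JCHAIN were higher in CfzR without overlap, at 1.23, 1.22 and 1.19 times the WT mean (limma adjusted p = 0.661, 0.653 and 0.830). The remaining plasma cell markers overlapped between groups. Of all genes tested, 22.1% were higher and 22.6% lower without overlap. Of 16 markers of B, T, myeloid, fibroblast and epithelial cells, 14 are not analysed here, and the keratin genes KRT8 and KRT18 summed to 2.10 and 3.70 FPKM in CfzR and 6.28 and 6.79 in WT. Their part in the results was not tested. In bulk RNA, fewer cells of a type and less RNA per cell cannot be told apart.

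None of the 44 proteasome genes passed the test, and their levels in resistant and wild-type cells mostly interleaved. PSMD6, a lid subunit, had the largest negative log2 fold change (-0.59), and PSMC3, an ATPase of the base, had the largest positive one (0.48). PSMB5, the drug's target, had a mean 0.813 times that of WT, and its groups overlapped. With limma and Benjamini-Hochberg adjustment over 13411 genes, the smallest adjusted p among members was 0.317, while 0.35% of all genes passed the threshold of 0.05. At an unadjusted p under 0.05 there were 2 members, where 11.1% of all genes met that limit. They were PSMC3, higher in CfzR as were 5.32% of all genes, and PSMD6, lower in CfzR as were 5.81% of all genes. That count was 6 after scaling each library to the same sum, and 4 after quantile normalization or with a replicate block. The share of all genes at that limit was not counted under these settings, so these counts have no background to be read against. The values did not overlap between groups for 16 members (36.4%), against 44.7% of all genes. Of those members, 12 were higher in CfzR, where 22.1% of all genes were, and 4 were lower, where 22.6% of all genes were. The median log2 fold change was -0.06 over the members and -0.02 over all genes tested, and 19 members were positive and 25 negative, where 47.1% of all genes were positive.

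A count of 0 does not show that these genes were equal in the groups. The 95% interval of the log2 fold change had a median half-width of 0.55 over the members, so changes smaller than that could not be told from 0 for a typical member. The interval lay between -1 and 1 for 39 of the 44 members. For PSMB5 it ran from -0.95 to 0.31.

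**Figure D1:**
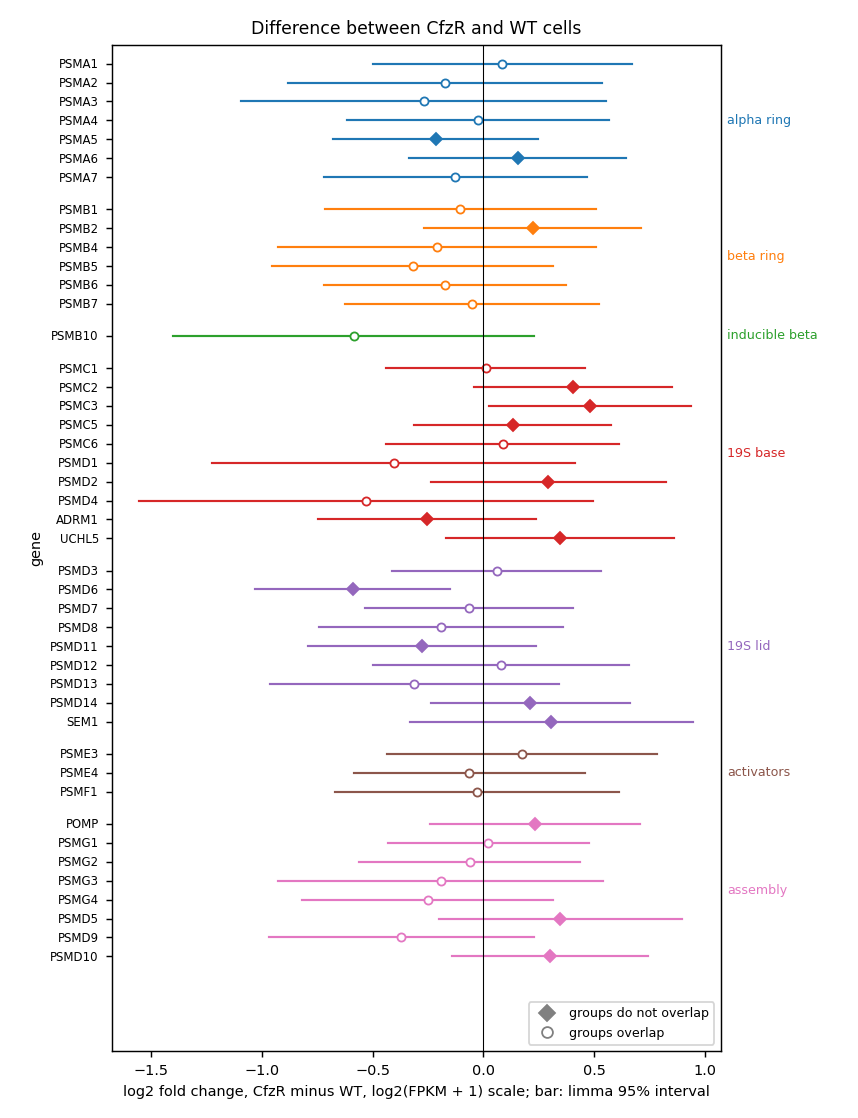
Log2 fold change of each measured proteasome gene, CfzR minus WT, on the log2(FPKM + 1) scale, with the limma 95% interval (n = 2 libraries per group). Genes run down the page by class and filled diamonds mark the 16 genes whose groups do not overlap. The intervals exclude 0 for 2 genes, PSMC3 on the positive side and PSMD6 on the negative side.

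The catalytic subunits were abundant in every library, and the gene with the highest level among them was the inducible PSMB10. PSMB5 (ENSG00000100804, chromosome 14, 23016543 to 23035230, GENCODE positions on GRCh38), which carries the chymotrypsin-like activity, stood at 76.9 and 117 FPKM in CfzR and at 107 and 131 FPKM in WT. CfzR replicate 1 was the lowest of the 4 libraries, and CfzR replicate 2 lay between the WT libraries. The log2 fold change was -0.32 (SE 0.27, limma adjusted p = 0.659), and leaving out CfzR replicate 1 gave -0.02, while leaving out CfzR replicate 2 gave -0.62. PSMB6, which carries the caspase-like activity, stood at 92.8 and 124 FPKM in CfzR and at 123 and 119 FPKM in WT (log2 fold change -0.17, SE 0.23, adjusted p = 0.777). PSMB7, which carries the trypsin-like activity, stood at 92.4 and 127 FPKM in CfzR and at 103 and 122 FPKM in WT (log2 fold change -0.05, SE 0.24, adjusted p = 0.944). For both genes CfzR replicate 1 was the lowest library and CfzR replicate 2 the highest.

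PSMB10, which takes the place of PSMB7 in the immunoproteasome, stood at 192 and 344 FPKM in CfzR and at 332 and 450.1 FPKM in WT. Its lowest value was again that of CfzR replicate 1, and CfzR replicate 2 exceeded WT replicate 1. The means were 268 ± 108 FPKM in CfzR and 391 ± 83.3 FPKM in WT (SD, n = 2 each), with a log2 fold change of -0.59 (SE 0.34, adjusted p = 0.553) that was -0.17 without CfzR replicate 1. The ratio within a library does not depend on how libraries are scaled. PSMB10 made up 67.5% and 73.1% of the FPKM of the pair PSMB10 and PSMB7 in CfzR, against 76.4% and 78.6% in WT. The CfzR shares were both below the WT shares, with means of 70.3% ± 3.95 in CfzR and 77.5% ± 1.62 in WT (SD, n = 2 each). With 2 libraries against 2, the smallest two-sided p of an exact permutation test is 0.333, so that test could not reach 0.05 here, and no other test of the share was run. The order of the constitutive subunits was PSMB5, PSMB6, PSMB7 from low to high in CfzR and PSMB7, PSMB5, PSMB6 in WT. The CfzR means, 97.0 to 109.5 FPKM, lay closer together than the SD of 22.4 to 28.4 FPKM between the CfzR libraries, and the WT means were 113 to 121 FPKM with SDs of 2.69 to 16.8.

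**Figure D2:**
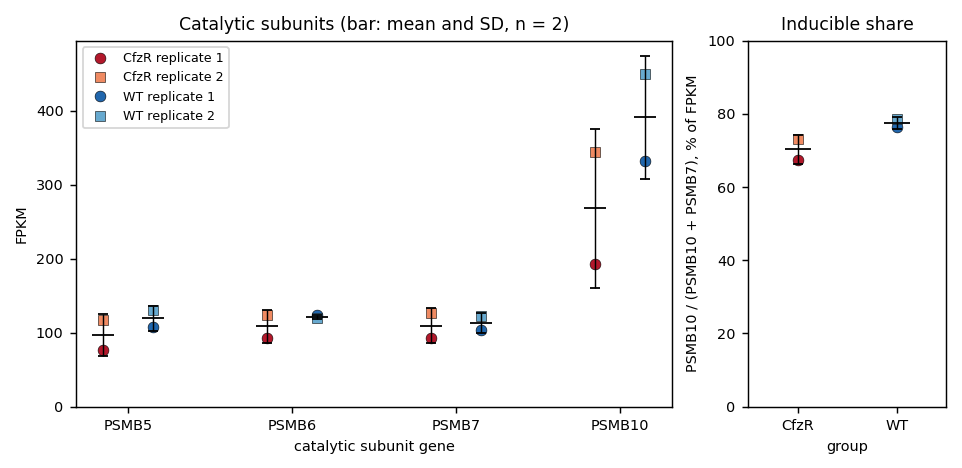
Left, FPKM of the catalytic subunit genes in each library, CfzR left of WT, with mean and SD (n = 2). Right, PSMB10 as a percent of PSMB10 plus PSMB7. CfzR replicate 1 has the lowest point for each gene, and PSMB10 lies above the other genes in every library.

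In the rest of the beta ring, only PSMB2 had groups that did not overlap, as 44.7% of all genes did. PSMB2, which is not catalytic, stood at 68.2 and 64.6 FPKM in CfzR and at 63.1 and 51.0 FPKM in WT, so the closest libraries of the groups were nearly level (log2 fold change 0.22, adjusted p = 0.688). PSMB4 was the most abundant gene of the whole set, at 362 and 529 FPKM in CfzR and at 455 and 563 FPKM in WT. PSMB1 stood at 166 and 229.8 FPKM in CfzR and at 194 and 228 FPKM in WT. Over the 6 measured genes of the ring the median log2 fold change was -0.14, and 1 was positive.

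In the alpha ring, which forms the gate of the core, the log2 fold change had a median of -0.13 over the 7 genes, 2 of them positive. PSMA6 stood at 114 and 127 FPKM in CfzR and at 106 and 111 FPKM in WT, and PSMA5 at 31.4 and 35.0 FPKM in CfzR and at 36.2 and 41.3 FPKM in WT. These were the only alpha genes whose groups did not overlap, against 44.7% of all genes. PSMA6 had CfzR above WT and PSMA5 had CfzR below (log2 fold changes 0.15 and -0.22, adjusted p = 0.778 and 0.680). PSMA3 differed more within groups than between them, at 52.9 and 94.5 FPKM in CfzR and at 66.8 and 109 FPKM in WT. The order of the 7 alpha genes by mean FPKM was the same in both groups, PSMA5, PSMA3, PSMA6, PSMA1, PSMA7, PSMA4 and PSMA2 from low to high. PSMA5 averaged 33.2 FPKM in CfzR and 38.8 in WT, and PSMA2 averaged 211 in CfzR and 239.6 in WT.

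In the 19S base, 5 of 10 measured genes were higher in CfzR without overlap, where 22.1% of all genes were. PSMC3 (ENSG00000165916, chromosome 11, 47418769 to 47426473), an ATPase, stood at 81.1 and 85.8 FPKM in CfzR and at 59.8 and 59.2 FPKM in WT. The groups were far apart relative to the spread within them, with means of 83.4 ± 3.30 FPKM in CfzR and 59.5 ± 0.465 FPKM in WT (SD, n = 2 each). The mean was 1.40 times that of WT (log2 fold change 0.48, SE 0.19), with a limma adjusted p of 0.428 and an unadjusted one of 0.0418. PSMC2 (chromosome 7, 103344254 to 103369395), another ATPase, stood at 34.6 and 30.3 FPKM in CfzR and at 24.3 and 24.1 FPKM in WT, again without overlap (log2 fold change 0.40, SE 0.19, adjusted p = 0.485). Its level is uncertain, since its locus overlaps the pseudogene RPS29P16, which stood at 113 and 209 FPKM in CfzR and at 225 and 251 FPKM in WT. The ATPase gene PSMC5 had 49.6 and 49.7 FPKM in CfzR and 47.0 and 43.5 FPKM in WT, a small separation (log2 fold change 0.13, adjusted p = 0.791). PSMC1 and PSMC6, the remaining ATPases measured, had log2 fold changes of 0.01 and 0.09.

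Among the other base genes the signs were mixed. PSMD2, a scaffold subunit, stood at 108 and 96.0 FPKM in CfzR and at 94.1 and 73.0 FPKM in WT (log2 fold change 0.29, adjusted p = 0.633). PSMD1, the other large scaffold subunit, stood at 17.0 and 36.5 FPKM in CfzR and at 30.1 and 37.0 FPKM in WT, with CfzR replicate 1 far below the other libraries (log2 fold change -0.40, SE 0.35, adjusted p = 0.666; 0.13 without CfzR replicate 1). The ubiquitin receptor PSMD4 had the largest SE of the base genes, at 128 and 295 FPKM in CfzR and at 221 and 357 FPKM in WT (log2 fold change -0.53, SE 0.43, adjusted p = 0.655; 0.07 without CfzR replicate 1). ADRM1, a second ubiquitin receptor, stood at 69.9 and 80.9 FPKM in CfzR and at 95.3 and 84.7 FPKM in WT, lower in CfzR without overlap (log2 fold change -0.25, adjusted p = 0.655). UCHL5, the deubiquitinase that ADRM1 recruits, was the least abundant member, at 7.94 and 5.97 FPKM in CfzR and at 5.19 and 5.24 FPKM in WT (log2 fold change 0.35, SE 0.22, adjusted p = 0.568). The receptor and its enzyme had fold changes of opposite sign, neither of which passed. Of the 10 measured base genes 7 were positive, with a median of 0.11, and 6 had groups without overlap (44.7% of all genes), 5 of them higher in CfzR.

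In the 19S lid, PSMD6 had the smallest adjusted p of all members. PSMD6 (ENSG00000163636, chromosome 3, 64010549 to 64024010), a structural subunit of the lid, stood at 22.0 and 22.1 FPKM in CfzR and at 32.1 and 35.4 FPKM in WT. The CfzR libraries were nearly identical and both lay below the WT libraries, at a mean of 22.0 ± 0.0919 FPKM in CfzR and 33.7 ± 2.34 FPKM in WT (SD, n = 2 each). The mean was 0.653 times that of WT (log2 fold change -0.59, SE 0.19), with a limma adjusted p of 0.317 and an unadjusted one of 0.0158. PSMD11, a lid subunit that clamps the particle to the core, stood at 41.9 and 44.5 FPKM in CfzR and at 45.4 and 60.7 FPKM in WT (log2 fold change -0.28, adjusted p = 0.644). PSMD14, the deubiquitinase of the lid, stood at 28.9 and 27.0 FPKM in CfzR and at 22.6 and 25.5 FPKM in WT (log2 fold change 0.21, adjusted p = 0.680). SEM1, a small acidic lid protein, stood at 266 and 381 FPKM in CfzR and at 264 and 249.9 FPKM in WT, so CfzR replicate 1 was level with WT and the difference came from CfzR replicate 2 (log2 fold change 0.31, SE 0.27, adjusted p = 0.674). SEM1 lies on chromosome 7 (96481626 to 96709891), as do PSMC2 (103344254 to 103369395), PSMA2 (42916857 to 42932223) and PSMG3 (1567330 to 1571005). The log2 fold changes were 0.31 for SEM1, 0.40 for PSMC2, -0.17 for PSMA2 and -0.19 for PSMG3. Whether position on the chromosome bears on these values was not tested. The 9 lid genes had a median of -0.07, with 4 positive and 4 without overlap, against 47.1% and 44.7% of all genes.

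**Figure D3:**
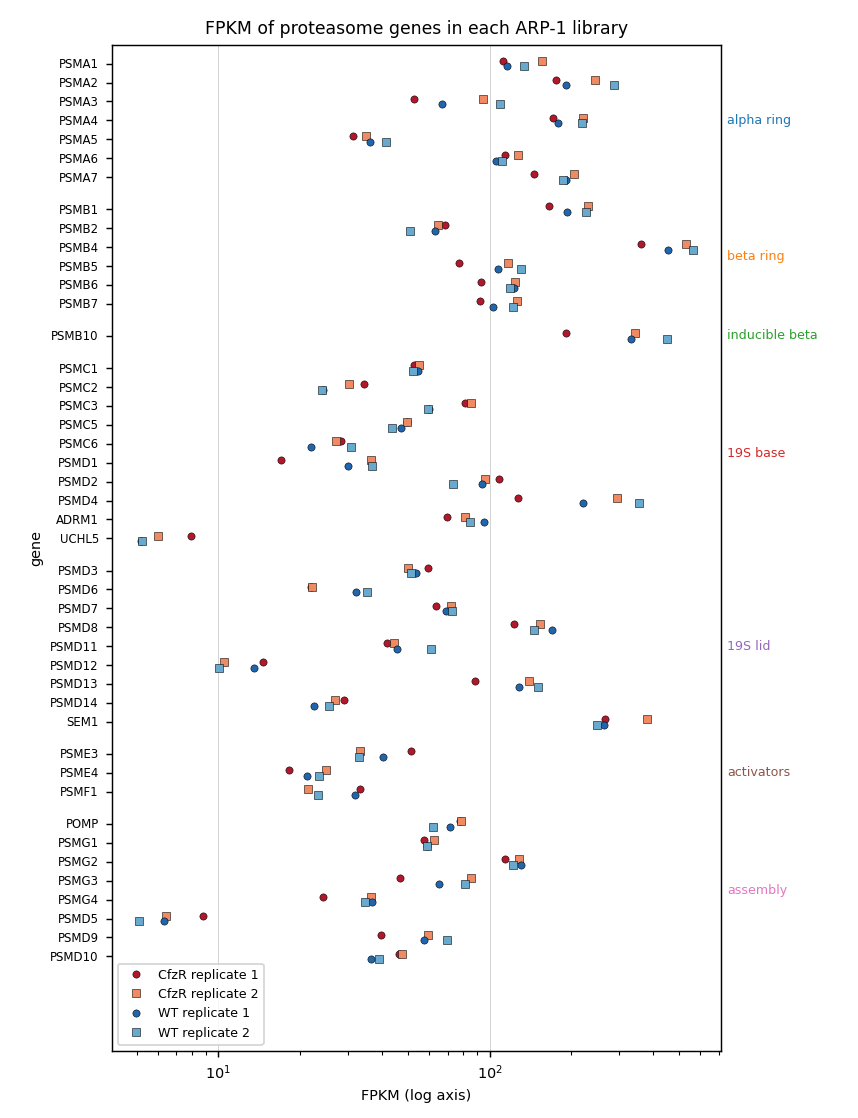
FPKM of the 44 measured proteasome genes in each library on a log axis, with CfzR points above WT points on each gene's row. The means run from UCHL5, at 6.96 FPKM in CfzR and 5.21 in WT, to PSMB4, at 446 FPKM in CfzR and 509 in WT, and the groups are separate for PSMC3 and PSMD6.

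The activators open the core without ubiquitin or ATP. None of the 3 measured genes of this class had groups without overlap, against 44.7% of all genes. PSME3, the nuclear activator PA28 gamma, stood at 51.3 and 33.3 FPKM in CfzR and at 40.5 and 33.0 FPKM in WT (log2 fold change 0.17, adjusted p = 0.801). PSME4, the activator PA200, had a log2 fold change of -0.06, and PSMF1, the inhibitor PI31, one of -0.03. The replicates of PSMF1 differed more than its groups, since it stood at 33.2 and 21.5 FPKM in CfzR and at 31.9 and 23.4 FPKM in WT.

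Of the 8 assembly factors, 4 were positive, where 47.1% of all genes were, and 3 were higher in CfzR without overlap, where 22.1% of all genes were. PSMD10, a chaperone of the 19S base also known as gankyrin, stood at 46.2 and 47.4 FPKM in CfzR and at 36.6 and 39.0 FPKM in WT, without overlap (log2 fold change 0.30, SE 0.19, adjusted p = 0.564). PSMD5, another chaperone of the base, stood at 8.74 and 6.40 FPKM in CfzR and at 6.28 and 5.10 FPKM in WT (log2 fold change 0.35, SE 0.23, adjusted p = 0.584). PSMD9, also a chaperone of the base, stood at 39.7 and 59.5 FPKM in CfzR and at 57.5 and 69.5 FPKM in WT (log2 fold change -0.37, SE 0.25, adjusted p = 0.594). PSMD10 and PSMD5 were higher in CfzR without overlap, while the PSMD9 values overlapped. POMP, which guides maturation of the beta ring, stood at 78.0 and 78.7 FPKM in CfzR and at 71.6 and 61.8 FPKM in WT (log2 fold change 0.23, adjusted p = 0.666). The chaperones of the alpha ring, PSMG1 to PSMG4, overlapped between groups, with log2 fold changes of 0.02, -0.06, -0.19 and -0.25.

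The direction of many members depended on which CfzR library was read. In 13 of 44 genes both CfzR libraries were above the WT mean on the log2 scale, and in 8 both were below it. CfzR replicate 1 was below and CfzR replicate 2 above the WT mean in 19 genes, and the reverse held in 4. Without CfzR replicate 1, 32 members were positive and their median log2 fold change was 0.08. Without CfzR replicate 2, 17 were positive and the median was -0.18. The absolute difference between the CfzR replicates exceeded the absolute log2 fold change in 31 of 44 genes. By class, the median difference of CfzR replicate 1 from the WT mean was -0.29 in the alpha ring and -0.36 in the beta ring, against 0.14 and 0.10 for CfzR replicate 2. For CfzR replicates 1 and 2 the medians were 0.12 and 0.13 in the 19S base, -0.16 and -0.03 in the lid, and -0.09 and 0.12 among assembly factors. The activators went the other way, at 0.27 and -0.13. Over all genes tested the medians were -0.05 for CfzR replicate 1 and 0.001 for CfzR replicate 2. How many of all genes split between the CfzR libraries in this way was not counted. The split is therefore not shown to be particular to the proteasome genes.

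**Figure D4:**
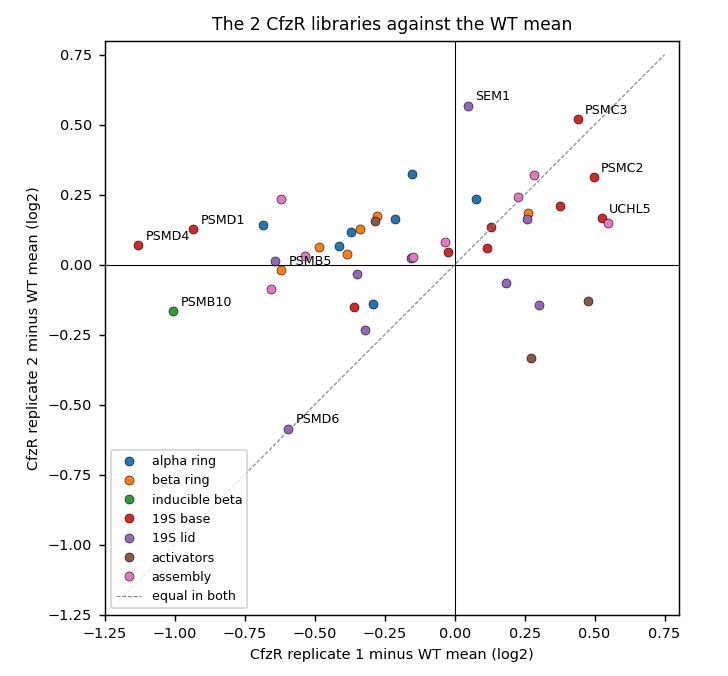
Difference of each CfzR library from the WT mean, CfzR replicate 1 across and CfzR replicate 2 up, on the log2(FPKM + 1) scale, with 1 point per gene. The upper left area, where CfzR replicate 1 is below and CfzR replicate 2 above WT, holds 19 of 44 genes, while PSMC3 and PSMD6 lie close to the dashed line of equal differences.

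Transcript length moved with the difference between replicates. Over the 44 members, the difference of CfzR replicate 1 from CfzR replicate 2 had a Spearman correlation of 0.476 with the length of the longest GENCODE transcript, and over 12896 tested genes it was 0.466. For the WT pair the values were 0.213 over the members and 0.146 over all genes. For the log2 fold change between CfzR and WT they were 0.235 over the members and 0.265 over all genes. These are descriptions across genes that share the same libraries. CfzR replicate 1 was below CfzR replicate 2 in all 7 alpha genes and in 5 of 6 beta genes, and in 33 of the 44 members (75.0%), against 54.5% of all genes tested. WT replicate 1 was below WT replicate 2 in 6 of 7 alpha genes and in 4 of 6 beta genes. Over the 44 members that held in 25 (56.8%), against 55.6% of all genes tested. Whether length accounts for these counts was not tested. After removal of each library's trend with length and GC share, PSMB5 had a log2 fold change of -0.17 and PSMB10 one of -0.35, while PSMC3 had 0.65 and PSMD6 had -0.76 (limma adjusted p = 0.178 for PSMC3 and 0.143 for PSMD6).

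**Figure D5:**
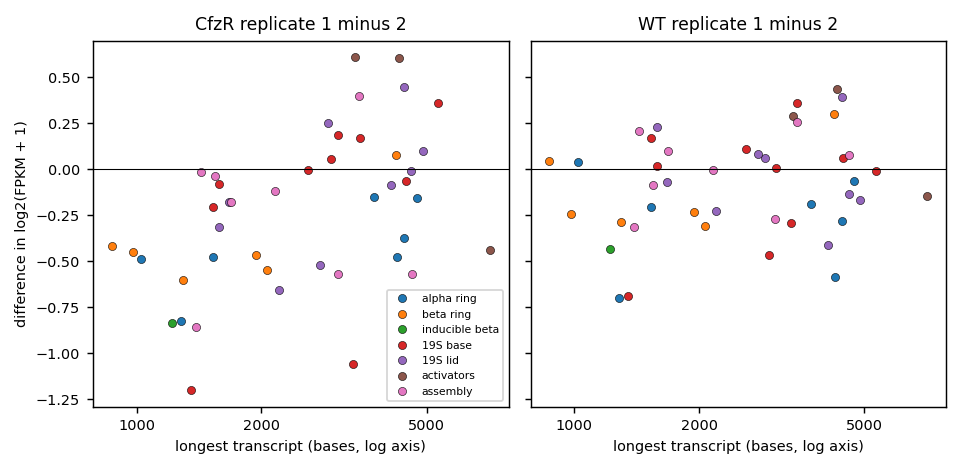
Difference between replicates on the log2(FPKM + 1) scale against the longest transcript of each member in bases (log axis), for the CfzR pair on the left and the WT pair on the right. The points slope upward more steeply in the CfzR pair, with Spearman correlations of 0.476 for CfzR and 0.213 for WT over 44 genes.

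The scale of the libraries also set the sign of many members. The 44 genes made up 0.543% and 0.555% of all FPKM in CfzR and 0.465% and 0.510% in WT, although their summed FPKM were 3656 and 4870 in CfzR and 4274 and 4873 in WT. When each library was scaled to a sum of 1000000, the median log2 fold change was 0.23 over the members and 0.23 over all genes tested. On that scale the members' median was thus level with that of all genes. Relative to the median member in its own library, 5 genes were higher in CfzR without overlap and 16 were lower, and 9 of these had the same direction without overlap on the deposited scale. On that relative scale 11.3% of all genes were higher and 31.6% lower without overlap, so an excess of lower genes was general, and the median log2 fold change of all genes was -0.096. PSMC3, PSMC2, PSMA6, SEM1 and PSMD10 were the 5 higher ones. For PSMA6 the separation was close to nil, since CfzR replicate 2 and WT replicate 2 both stood at 0.749 in log2 relative level. PSMB5 and PSMB10, which overlapped on the deposited scale, were among the 16 lower ones, with differences of -0.39 and -0.66 in log2 relative level. A total of 14 members kept their sign under all 15 alternative settings, 10 of them positive and 4 negative, and the negative ones were PSMB5, PSMB10, PSMD6 and PSMD9. Some of these settings could not change a sign. The other filters, the fit without a trend and the replicate block leave each log2 fold change as it was. A kept sign did not mean a steady value. SEM1 was at 0.00015 with the length and GC correction, and PSMB2 at 0.072 without WT replicate 2. Without CfzR replicate 1, PSMB5 was at -0.020 and PSMD9 at -0.086. How many of all genes kept their sign was not counted.

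Genes that work beside the proteasome gave no call either. Of 25 such genes, all measured, 0 passed in limma over all genes tested and 0 had an unadjusted p under 0.05, where 11.1% of all genes did. Their median log2 fold change was 0.05, and 16 were positive. NFE2L1, the transcription factor that restores subunit levels when the proteasome is blocked, stood at 37.1 and 26.9 FPKM in CfzR and at 26.5 and 26.3 FPKM in WT, so that the difference came mainly from CfzR replicate 1 (log2 fold change 0.25, SE 0.22, adjusted p = 0.670). DDI2, NGLY1, UBQLN4 and USP14 are named after their values were seen. DDI2, the protease that activates NFE2L1, had a log2 fold change of 0.04, and NGLY1, which removes its sugars, one of 0.08. The smallest adjusted p in the list, 0.517, belonged to UBQLN4, a shuttle that delivers ubiquitinated proteins, at 22.3 and 20.7 FPKM in CfzR and at 26.8 and 28.8 FPKM in WT. USP14, a deubiquitinase that docks on the base, stood at 22.5 and 13.9 FPKM in CfzR and at 13.0 and 13.0 FPKM in WT. The groups did not overlap for 9 of the 25 genes (36.0%), against 44.7% of all genes.

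Several levels are uncertain because reads can be shared. By GENCODE positions, 17 of the 44 members overlapped another measured gene on the other strand, such as PSMA3 with PSMA3-AS1 and PSMG3 with PSMG3-AS1, and the sources used here do not say whether counting used strand. On the same strand, 4 members overlapped another measured gene, namely PSMA2, PSMA6, PSMB10 and PSMC2. For PSMA2, PSMA6 and PSMB10 that gene stood at no more than 7.78, 0.894 and 4.01 FPKM in any library. Named pseudogene copies were measured for PSMA6 and PSMC1, at 5.08 FPKM or less.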

How the data were processed

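RNA-seq of ARP-1 cells was analysed in 2 groups of 2 libraries, CfzR and WT. The authors deposited 1 table of FPKM values per Ensembl gene, made with STAR and Cufflinks per the submitters' processing notes. The sources used here do not give tool versions, genome build, annotation or use of strand. FPKM are scaled to length and library, so depth is unknown and no counting interval is given. The columns named con were read as WT, the labels' only other group.

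Symbols came from a table of Ensembl IDs (15027 of 15201 matched), and positions and lengths from GENCODE 29. Tested genes (13411) averaged 1 FPKM or more across the 4 libraries. They were compared on log2(FPKM + 1), with limma 3.58.1 in R 4.3.3, a mean-variance trend and no covariate. The pseudocount makes a fold change understate differences of low genes. Tests were two-sided, with Benjamini-Hochberg adjustment over all genes tested and a threshold of 0.05. Intervals cover 95%. The fit was also run on simulated data. The changes put in were larger than any member's and the noise was independent between libraries. That run therefore does not bear on changes as small as those of the members. All 44 measured members passed the filter.

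Members and lists were chosen with earlier results of these data known. Full values were given for the catalytic subunits, for members whose groups did not overlap or whose unadjusted p was under 0.05, and for NFE2L1. Of the partner list, genes past the threshold or with an unadjusted p under 0.05 were to be named as well. Promoters came from a RefSeq table (GRCh38.p14), in which PSMA7, PSMB1, PSMB6, PSMB7, PSMD4 and PSMG3 were unmatched. Alternatives were other pseudocounts, filters and scalings, no trend, a replicate block, a length and GC correction, and leaving out each library.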

Additional observations from a re-analysis of the deposited data

How the results depend on the processing

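No member passed the threshold under any of 15 alternatives, and the lowest adjusted p of a member was 0.055, for PSMD6 with the replicate block. Of 660 values of a member under an alternative, 76 changed sign. The 660 include the other filters, the fit without a trend and the replicate block, where a sign could not change. The genes past the threshold, 47 as reported, were 27 with a filter at 5 FPKM, 128 with centring on the members (52 higher, 76 lower), 102 with scaling to a sum of 1000000 (82 higher, 20 lower), and 16 to 260 with 1 library left out (16 without CfzR replicate 1, 17 without CfzR replicate 2, 148 without WT replicate 2, 260 without WT replicate 1), where the lone library is assumed to vary like the other group. With the replicate number as a block, 1242 genes passed (487 higher, 755 lower). The labels do not say that equal numbers mark a shared culture or day, and with 2 pairs the correlation of their deviations, 0.25 over 13411 genes and 0.70 over the 44 members, does not settle the pairing. The members' median log2 fold change, -0.06 as reported, was 0.12 after quantile normalization, 0.23 after scaling to a sum of 1000000, and -0.18 to 0.08 with 1 library left out. The difference in the PSMB10 share was -7.18 percentage points and ran from -9.98 to -4.38 with 1 library left out. The centring and the scaling to a sum were chosen after seeing the data. The causes were not tested.

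Log2 fold changes that changed sign with centring on the members were PSMC1 -0.062, PSMD3 -0.013, PSMG1 -0.049. With the length and GC correction they were PSMA6 -0.029, PSMA7 0.092, PSMB6 0.053, PSMB7 0.10, PSMC1 -0.020, PSMC6 -0.047, PSMD12 -0.10, PSMD14 -0.13, PSMG2 0.053, PSMG3 0.017. After quantile normalization they were PSMA2 0.084, PSMA4 0.22, PSMA7 0.11, PSMB1 0.14, PSMB4 0.10, PSMB6 0.0039, PSMB7 0.12, PSMD7 0.095, PSMD8 0.0070, PSMF1 0.064, PSMG2 0.12. After scaling to a sum of 1000000 they were ADRM1 0.028, PSMA2 0.11, PSMA3 0.011, PSMA4 0.26, PSMA5 0.062, PSMA7 0.16, PSMB1 0.18, PSMB4 0.075, PSMB6 0.11, PSMB7 0.23, PSMD11 0.0023, PSMD7 0.22, PSMD8 0.092, PSME4 0.21, PSMF1 0.25, PSMG2 0.22, PSMG3 0.088, PSMG4 0.024. With 1 library left out, the ranges of the members that changed sign were PSMA1 -0.15 to 0.32, PSMA2 -0.47 to 0.12, PSMA3 -0.68 to 0.14, PSMA4 -0.21 to 0.16, PSMA7 -0.37 to 0.12, PSMB1 -0.34 to 0.13, PSMB4 -0.48 to 0.065, PSMB6 -0.38 to 0.037, PSMB7 -0.28 to 0.17, PSMC1 -0.023 to 0.044, PSMC6 -0.15 to 0.32, PSMD1 -0.93 to 0.13, PSMD12 -0.14 to 0.30, PSMD13 -0.64 to 0.014, PSMD3 -0.066 to 0.18, PSMD4 -1.13 to 0.070, PSMD7 -0.16 to 0.025, PSME3 -0.13 to 0.48, PSME4 -0.28 to 0.15, PSMF1 -0.33 to 0.27, PSMG1 -0.036 to 0.082, PSMG2 -0.15 to 0.028, PSMG3 -0.62 to 0.24, PSMG4 -0.54 to 0.032.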

Other observations

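Genes related to the proteasome by name that are not on the list were read after the results were known, so they are values only. PSMA8, the alpha subunit of the testis proteasome, stood at 2.80 and 2.31 FPKM in CfzR and at 2.62 and 3.05 FPKM in WT. PSME2P2, a pseudogene of the activator gene PSME2, stood at 8.74 and 12.3 FPKM in CfzR and at 9.66 and 15.3 FPKM in WT. PSMC3IP, a recombination factor named for binding PSMC3, stood at 14.8 and 16.0 FPKM in CfzR and at 10.6 and 13.0 FPKM in WT. PSME3IP1 stood at 26.9 and 30.0 FPKM in CfzR and at 25.5 and 25.7 FPKM in WT. The antisense transcript PSMA3-AS1 stood at 16.6 and 15.8 FPKM in CfzR and at 8.54 and 12.9 FPKM in WT, while PSMA3 itself overlapped between the groups.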
